A study of Eriocheir sinensis with 9 samples.

Results

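Eyestalk RNA of the Chinese mitten crab, Eriocheir sinensis, was compared between crabs kept at 22 °C and crabs kept at either of the warmer temperatures, 27 and 32 °C, pooled into a single warm group. All 9 libraries of the series entered the comparison, 3 at 22 °C and 6 in the warm group, of which 3 were at 27 °C and 3 at 32 °C. All were labelled wild type and untreated, so the temperature of a library was read from its title. Crabs between molts, of 13.8 ± 1.5 g, had been held at 25 °C before the experiment, which ran at 6 temperatures (7, 12, 17, 22, 27 and 32 °C) with 16 crabs in each of 3 parallel replicates, and the libraries of the 3 highest temperatures are described here. The labels give no length of exposure and do not say whether a library came from 1 crab or a pool, so p-values reflect how far these libraries differ among themselves, in part perhaps for technical reasons. The design text of the series speaks of muscle and of Illumina sequencing, while the sample labels name eyestalk and DNBSEQ.

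The eyestalk of a decapod crustacean carries the compound eye and the optic ganglia. It also holds the X-organ and sinus gland, which make and release peptide hormones that act on molting, blood sugar, reproduction and pigment movement. A crab is an ectotherm, so the temperature of the water is the temperature of its tissues, and acute warming in ectotherms is known for raising chaperones that refold damaged proteins. The table lists 267789 numbered isoforms, single transcript entries of which several can belong to 1 gene, without gene names. None of these identifiers could be tied to a gene (0 matches in the gene table used here), so neither the tissue markers nor any pathway could be checked, and isoforms are described as groups with 4 given by identifier. In such bulk tissue, fewer cells of a type and less RNA per cell cannot be told apart.

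Abundance was given in FPKM, the fragments of a transcript relative to its length and to all mapped fragments. Changes are given as differences of log2(FPKM + 1), which makes changes look smaller where FPKM is about 1 or less. An isoform was tested where it reached 1 FPKM in at least 3 of the 9 libraries, which 101114 did. The 11124 isoforms that reached it in exactly 3 libraries were the last to enter, and the 13979 that reached it in exactly 2 stayed out. This filter is easier to meet for an isoform present in the warm group alone, with its 6 libraries, than for one present at 22 °C alone. Of the tested isoforms, 8066 were under 1 FPKM in every 22 °C library and 421 were under 1 FPKM in every warm library.

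The 22 °C libraries resembled each other more than they resembled the warm ones. The correlation of log2(FPKM + 1) over all tested isoforms averaged 0.793 over the 3 pairs within 22 °C and 0.724 over the 18 pairs of a 22 °C with a warm library. It averaged 0.752 over the 15 pairs within the warm group. The 9 pairs of a 27 °C with a 32 °C library averaged 0.745, above the 22 °C pairs with 27 °C (0.725) and with 32 °C (0.722). They lay below the 6 warm pairs of the same temperature, at 0.762. Single pairs overlapped, at 0.713 to 0.761 for 27 with 32 °C and 0.696 to 0.752 for 22 °C with warm. These pairs share libraries, and the values describe the set without a test. Isoforms of at least 1 FPKM numbered 80792 ± 2913 per library at 22 °C (SD, n = 3) and 85127 ± 2177 in the warm group (SD, n = 6). The groups overlapped, since the highest 22 °C library had 83822 and the lowest warm library 81852. The two-sided exact permutation p was 0.0476, or 0.143 after Benjamini-Hochberg adjustment over 3 such measures, where 84 arrangements of the libraries allow no p below 0.0238. Isoforms above 0 (167076 ± 3583 and 171189 ± 3425) and the share of summed FPKM in the 100 most abundant isoforms (30.8% ± 1.63 and 29.2% ± 2.44) did not pass either (SD, n = 3 and n = 6, adjusted exact permutation p of 0.25 and 0.333).

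In the warm group 595 isoforms rose and 561 fell relative to 22 °C. Those that rose had a median of 1.32 FPKM over their 22 °C means and of 7.07 FPKM over their warm means, and those that fell medians of 6.21 and 0.568 FPKM. The rises had a median change of 1.46 and the falls of -1.75 on the log2(FPKM + 1) scale, against 0.094 over all isoforms tested, with a median standard error of 0.237 among the calls. A change of 1 or more on this scale was found in 529 of the rises and 529 of the falls, and a change of 4 or more in 21 and 29. Among isoforms above 0 in all 9 libraries, where a ratio can be formed, the warm mean of the 455 rises was a median of 3.64 times the 22 °C mean, and 122 of them differed by 5 times or more. The 22 °C mean of the 279 such falls was a median of 3.70 times the warm mean, and 87 differed by 5 times or more.

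The 1156 calls were 1.14% of the isoforms tested (rises 0.588%, falls 0.555%) by limma's moderated test with a Benjamini-Hochberg adjusted p below 0.05, and 17020 isoforms had an unadjusted p below 0.05. In each of the 1156, all 6 warm values lay on the same side of all 3 values at 22 °C, a pattern seen in 11.0% of all isoforms tested (7.20% with the warm group higher and 3.78% with it lower). On the log2(FPKM + 1) scale the empty gap between the groups had a median of 0.77 in the rises and 0.86 in the falls, and was 1 or more in 171 and 231. The balance of directions depended on the scaling between libraries: after median-of-ratios scaling, which moved the median change over all tested isoforms from 0.094 to -0.020, 440 rose and 859 fell, and non-overlapping isoforms became 4656 higher and 6198 lower. The number of calls fell with any library left out, and most without replicate 1 or 2 at 22 °C, to 248 and 273. It was 617 without replicate 3 at 22 °C. Leaving out replicate 1, 2 or 3 at 27 °C gave 723, 719 and 722 calls, and leaving out replicate 1, 2 or 3 at 32 °C gave 674, 799 and 886.

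**Figure D1:**
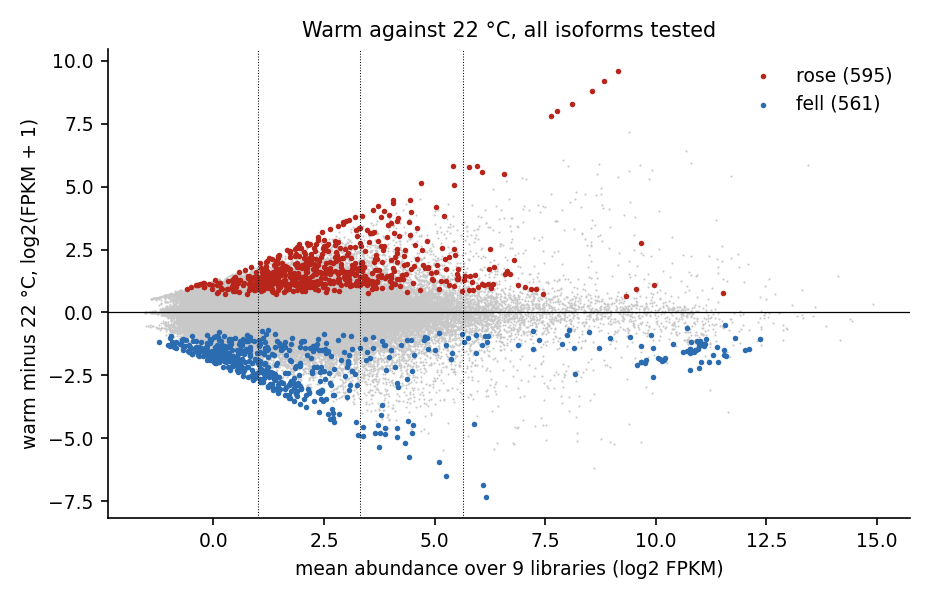
Each point is an isoform, with the mean abundance over the 9 libraries (log2 FPKM) on the horizontal axis and the warm minus 22 °C difference of log2(FPKM + 1) on the vertical axis. The 595 isoforms that rose are red, the 561 that fell are blue, isoforms that were not called are grey, and dotted lines mark 2, 10 and 50 FPKM; a separate patch of blue points lies at the abundant end, on the right.

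The most abundant isoforms more often fell than rose. The bands of abundance use the mean over the 9 libraries, of which 6 are warm, so a fall is drawn to a lower band and a rise to a higher one by the change itself. With a mean of at least 50 FPKM over the libraries, 75 isoforms fell (2.77% of 2707 tested) and 40 rose (1.48%). Of these, 53 falls and 6 rises averaged 500 FPKM or more. Between 50 and 500 FPKM rises outnumbered falls in the deposited values, though not after median-of-ratios scaling. Among those of 10 to 50 FPKM the order was the opposite, with 140 rises (1.29% of 10891) and 50 falls (0.459%). From 2 to 10 FPKM 339 rose and 213 fell of 46410, and under 2 FPKM 76 rose and 223 fell of 41106. An isoform under 1 FPKM in every warm library passed the filter only with all 3 libraries at 22 °C, so its groups never overlapped. Of the 421 such isoforms 218 were falls, while 178 of the 8066 under 1 FPKM in every 22 °C library were rises. The other scalings used the same filter and bands, so they cannot separate the order under 2 FPKM from the filter. More falls than rises at 50 FPKM or more, and under 2 FPKM, were also counted after rescaling to TPM (65 to 54, and 195 to 55), after median-of-ratios scaling (105 to 23, and 312 to 53) and after quantile normalization (64 to 41, and 267 to 43). At 10 to 50 FPKM rises outnumbered falls under all 3, by 155 to 33, 111 to 103 and 125 to 49. At 2 to 10 FPKM the order turned with median-of-ratios scaling, to 253 rises and 339 falls. With bands on a mean that weights 22 °C and the warm group equally on the log2(FPKM + 1) scale, added after the data were seen, 73 fell and 23 rose at 50 FPKM or more. Of these, 53 falls and 4 rises were at 500 FPKM or more. Falls were also the more frequent there after rescaling to TPM (62 to 37), median-of-ratios scaling (103 to 10) and quantile normalization (62 to 23). At 10 to 50 FPKM these bands held 81 rises and 38 falls, but 57 rises and 88 falls after median-of-ratios scaling. Under 2 FPKM they held 178 rises and 260 falls.

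**Figure D2:**
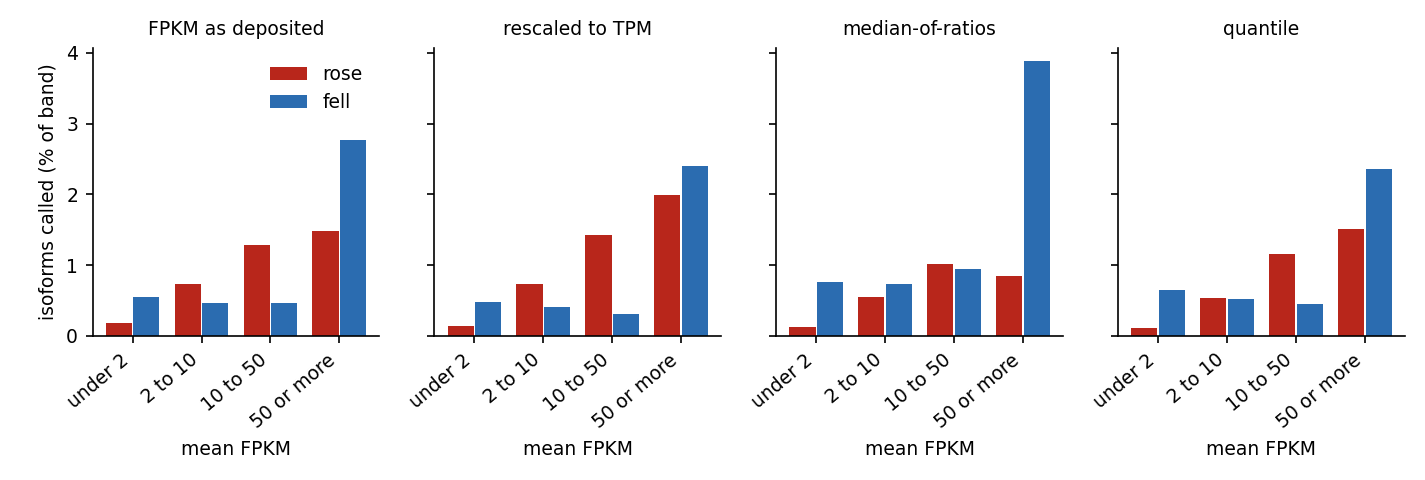
Bars give the isoforms called warm against 22 °C as a percentage of those tested in each band of mean FPKM, rises in red and falls in blue, with a panel for the deposited FPKM and for each other scaling. At 50 FPKM or more the blue bar is the taller in every panel, 2.77% against 1.48% in the deposited values, and at 10 to 50 FPKM the red bar is the taller in every panel, though not after median-of-ratios scaling with equally weighted bands.

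The abundant end held a separate group of falls. The limit of 500 FPKM was chosen after this patch of isoforms was seen, and the group is given as a description. Of the 626 tested isoforms with a mean of at least 500 FPKM, 53 (8.47%) fell and 6 (0.958%) rose, while 7 fell and 4 rose of the 431 averaging 200 to 500 FPKM. The 626 as a whole also leaned down. Called or not, 374 of them (59.7%) had a change below 0, and their median change was -0.152, against 0.094 over all isoforms tested. The median of the 53 was 3589, 3659 and 2331 FPKM in replicates 1, 2 and 3 at 22 °C. In the 27 °C libraries it was 1083, 1291 and 1247 FPKM, and in the 32 °C libraries 1200, 948 and 1017 FPKM. Every warm library was thus far below every 22 °C library, and replicate 3 at 22 °C was the lowest of its group, as it was in 50 of the 53 isoforms taken singly.

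The 22 °C mean of these 53 isoforms was 1.41 to 5.94 times the warm mean, with a median of 2.85 times. Together they held 8.93, 9.58 and 6.31% of summed FPKM in replicates 1, 2 and 3 at 22 °C. Their share was 3.38, 3.61 and 3.39% in the 27 °C libraries and 3.36, 3.19 and 3.14% in the 32 °C libraries. They made up most of what the fallen isoforms held in all, since the other 508 fallen isoforms held 0.501% ± 0.0246 at 22 °C (SD, n = 3) and 0.157% ± 0.0124 in the warm group (SD, n = 6). After the mean of each temperature was removed, the correlation of log2(FPKM + 1) over their 1378 pairs had a median of 0.743, with quartiles of 0.468 and 0.875. The same median was 0.146 over pairs of the other 573 isoforms of 500 FPKM or more, and 0.0019 over pairs of the other 508 falls. The points of these correlations share libraries, and isoforms of 1 gene can share reads, so they are not independent. The 53 were also picked from the same libraries. Replicate 3 at 22 °C, the lowest of its group in 50 of the 53, enters these correlations, and its part in the median of 0.743 was not tested. The 32 °C mean was below the 27 °C mean in 30 of the 53, and 0 of them had an unadjusted limma p below 0.05 for 32 against 27 °C.

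As for all calls (from 1156 to 248 and 273), the count of abundant falls dropped most without replicate 1 or 2 at 22 °C. It was 10 without replicate 1, 13 without replicate 2 and 46 without replicate 3 of that group. Leaving out replicate 1, 2 or 3 at 27 °C gave 37, 35 and 37, and leaving out replicate 1, 2 or 3 at 32 °C gave 38, 38 and 39. Rises at 500 FPKM or more numbered between 1 (without replicate 1 at 22 °C) and 10 (without replicate 3 at 22 °C) in these fits. Falls outnumbered rises in each of them, and under each scaling, with 55 and 10 after rescaling to TPM, 63 and 4 after median-of-ratios scaling and 41 and 8 after quantile normalization. Among the 100 most abundant isoforms 11 fell and 1 rose. Among the 1000 most abundant 60 fell and 9 rose.

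Measured as a share of the whole library, the rises stayed small. They held 0.272, 0.296 and 0.318% of summed FPKM in replicates 1, 2 and 3 at 22 °C. In the 27 °C libraries they held 0.985, 0.947 and 1.12%, and in the 32 °C libraries 1.12, 1.05 and 0.957%. The fallen isoforms held 8.78% ± 1.75 at 22 °C (SD, n = 3) and 3.50% ± 0.158 in the warm group (SD, n = 6). These libraries were also the ones that selected the sets, so their shares are a description and no separate test. The 3 values at 22 °C were spread more widely among the falls, from 6.79 to 10.1%, than the 6 warm values, from 3.32 to 3.77%.

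**Figure D3:**
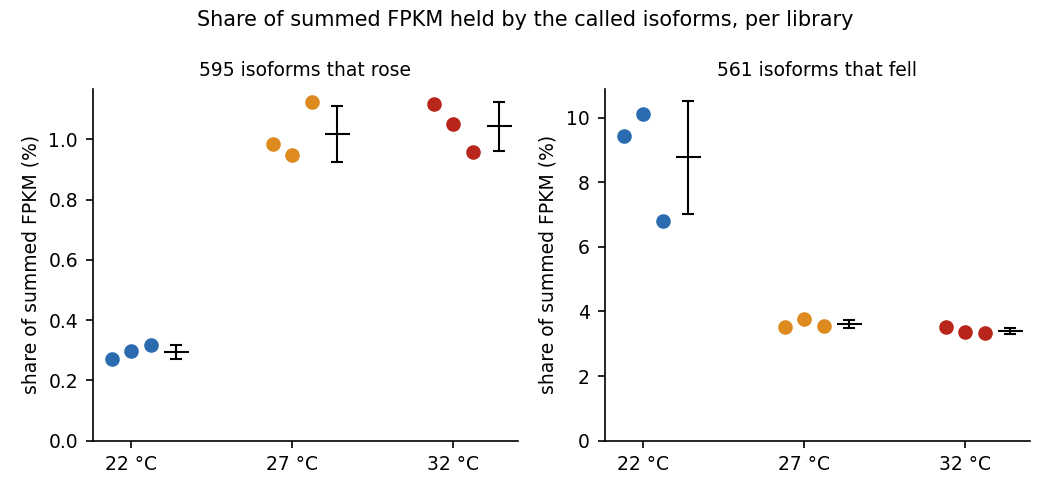
Points give, for each library, the share of summed FPKM (%) held by the 595 isoforms that rose (left) and the 561 that fell (right), by temperature, and bars beside them give the mean ± SD of 3 libraries. The warm libraries lie at 0.947 to 1.12% on the left and 3.32 to 3.77% on the right, apart from the 22 °C libraries, on whose values the sets were chosen.

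A small set of isoforms was listed at 0 in every library of a group. Since an estimate that failed can also read 0, no fold change is given for these. In the table, 45 tested isoforms were listed at 0 in all 3 libraries at 22 °C and reached 1 FPKM in all 6 warm libraries, and 39 of these 45 were among the rises. The opposite pattern, 0 in all 6 warm libraries and 1 FPKM or more in all 3 at 22 °C, was found in 71, all among the falls. An isoform at 0 in every warm library could pass the filter in no other way than with all 3 libraries at 22 °C, so its being called says little, while 1316 tested isoforms were at 0 in all 3 libraries at 22 °C.

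Those with abundance listed in the warm group alone included some of high abundance. The limit was then raised to 10 FPKM in every library of the group with listed abundance. At this limit 7 isoforms had abundance listed in the warm group alone and 7 at 22 °C alone. All of them were called, but they were chosen for a wide gap between the groups, so their being called says little. The 7 listed in the warm group alone had warm means between 64.5 and 850.3 FPKM, with a median of 416 FPKM. Their lowest single value in any warm library was 20.57 FPKM, in replicate 2 at 32 °C. The warm libraries differed too, with a median of these 7 from 88.56 FPKM in that library to 911.58 FPKM in replicate 3 at 27 °C. The 7 listed at 22 °C alone had 22 °C means between 18.7 and 214 FPKM, with a median of 31.3 FPKM. Their medians were 24.81, 33.2 and 36.61 FPKM in replicates 1, 2 and 3 at 22 °C. The largest value of any of the 7 was 223.07 FPKM in replicate 1, 416.79 FPKM in replicate 2 and 56.29 FPKM in replicate 3, so the upper end of these isoforms differed between the 22 °C libraries.

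For single isoforms, the largest changes among called isoforms above 0 in all 9 libraries, with at least 10 FPKM in the higher group, are given by identifier, chosen from 329 that met these conditions. In isoform_75091, the largest rise on the log2(FPKM + 1) scale, the 22 °C libraries measured 1.23, 0.01 and 3.5 FPKM, the 27 °C libraries 22.04, 26.22 and 25.4 FPKM and the 32 °C libraries 24.12, 21.37 and 36.53 FPKM. The 22 °C libraries were all low and differed among themselves, and every warm library lay well above all of them, with replicate 3 at 32 °C the highest. Its mean was 1.58 ± 1.77 FPKM at 22 °C (SD, n = 3) and 25.9 ± 5.51 FPKM in the warm group (SD, n = 6), a ratio of 16.4. The change in log2(FPKM + 1) was 3.62, with a standard error of 0.408 (limma, adjusted p = 0.00684, and between 0.00285 and 0.0898 over 21 alternative settings). It passed in 20 of the 21, the exception being a pseudocount of 0.01 (limma, adjusted p of 0.0898). After rescaling to TPM its change, 3.15, was below that of isoform_263825, 3.18.

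In isoform_263825 the 22 °C libraries measured 0.84, 0.77 and 1.71 FPKM, the 27 °C libraries 8.43, 9.82 and 76.28 FPKM and the 32 °C libraries 21.06, 26.77 and 48.19 FPKM. All warm values were above all values at 22 °C, but they were spread widely, with replicate 3 at 27 °C far above the other libraries of that temperature. Its mean was 1.11 ± 0.524 FPKM at 22 °C (SD, n = 3) and 31.8 ± 26.1 FPKM in the warm group (SD, n = 6), a ratio of 28.7, above that of isoform_75091. The change was 3.59 with a standard error of 0.650 (limma, adjusted p = 0.0408, and between 0.0271 and 0.169 over the alternatives), and it passed in 13 of 21. Leaving out replicate 1, 2 or 3 at 22 °C ended the call (limma, adjusted p of 0.169, 0.160 and 0.0933), as did leaving out replicate 1, 2 or 3 at 32 °C (limma, adjusted p of 0.0745, 0.0729 and 0.0659). It also missed with no filter and after rescaling to TPM (limma, adjusted p of 0.0831 and 0.0524).

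In isoform_68514, the largest fall, the 22 °C libraries measured 162.3, 221.49 and 109.91 FPKM, the 27 °C libraries 9.93, 9.31 and 9.47 FPKM and the 32 °C libraries 5.33, 2.63 and 4.39 FPKM. The 3 values at 27 °C were nearly equal and all lay above the 3 at 32 °C. Its mean was 165 ± 55.8 FPKM at 22 °C (SD, n = 3) and 6.84 ± 3.12 FPKM in the warm group (SD, n = 6), a ratio of 24.0. The change was -4.45 with a standard error of 0.403 (limma, adjusted p = 0.00227), and it passed in all 21 alternatives, with adjusted p between 0.000699 and 0.0225. Its difference of -1.08 between 32 and 27 °C had an unadjusted p of 0.00772 in limma. Adjusted over all isoforms tested the limma p was 0.361, which did not pass.

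In isoform_206379 the 22 °C libraries measured 12.84, 14.25 and 16.12 FPKM, the 27 °C libraries 0.28, 0.14 and 1.68 FPKM and the 32 °C libraries 2.55, 0.22 and 0.96 FPKM. The 22 °C libraries were close together and all warm libraries were low, with no order between the warmer temperatures. The change was -3.10 with a standard error of 0.381 (limma, adjusted p = 0.00919, and between 0.00524 and 0.0637 over the alternatives). It passed in 18 of 21, and missed without replicate 1 or 2 at 22 °C (limma, adjusted p of 0.0509 and 0.0531) and with a pseudocount of 0.01 (limma, adjusted p of 0.0637).

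**Figure D4:**
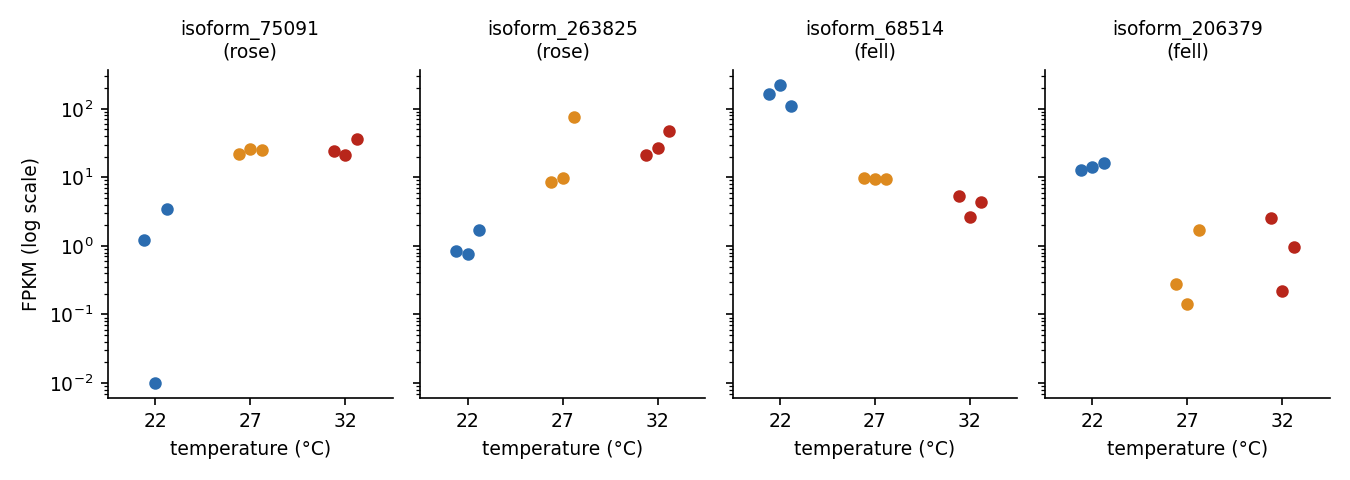
Each point is the FPKM of a library (log axis) by temperature (°C) for the 2 isoforms with the largest rises and the 2 with the largest falls. They were taken among called isoforms above 0 in all 9 libraries, with at least 10 FPKM in the higher group. In isoform_68514 the warm values lie between 2.63 and 9.93 FPKM, below 109.91 FPKM or more at 22 °C, and in isoform_263825 the warm values are spread from 8.43 to 76.28 FPKM.

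The pooled comparison does not separate 27 from 32 °C, and the difference between them was taken from a fit with the 3 temperatures kept apart. The median change of the rises was 1.43 at 27 °C and 1.48 at 32 °C, and that of the falls -1.68 and -1.77, on the log2(FPKM + 1) scale, each against the same 22 °C libraries. Taken alone, 27 °C against 22 °C called 0.587% and 32 °C against 22 °C called 1.70% of the isoforms tested in that fit. The 27 and 32 °C means differed by less than 0.5 on that scale in 82.9% of the rises and 82.5% of the falls, and in 69.1% of all isoforms tested. Differences of 1 or more were found in 16 rises and 19 falls. Of the 1156 calls, 0 differed between 32 and 27 °C at an adjusted p of 0.05 in limma, against 0.120% of all isoforms tested. At an unadjusted p of 0.05, 58 rises (9.75%) and 37 falls (6.60%) differed, near the 9.04% of all isoforms tested. A group of 6 that holds both temperatures counts any difference between them as spread, so the calls were in part chosen for being level from 27 to 32 °C.

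The small remaining difference between 27 and 32 °C more often continued the change than it went back. Among the rises this was little more often than among all isoforms tested. It did not hold for falls of 50 FPKM or more in the deposited values. The 32 °C mean was the higher in 325 of the 595 rises (54.6%, against 51.2% of all isoforms tested) and the lower in 300 of the 561 falls (53.5%, against 48.7%). The falls included 71 listed at 0 in every warm library, which have no such difference. Of the other 490 falls, 300 (61.2%) were lower and 190 were higher at 32 °C. The 48.7% of all isoforms tested counts those without a difference too. Among falls of 50 FPKM or more, 37 of 75 (49.3%) were lower at 32 °C, against 52% of all isoforms in that band. These values were 43.8 and 53.6% after quantile normalization. They were 58.5 and 45.7% after rescaling to TPM, and 53.3 and 52.2% after median-of-ratios scaling. After median-of-ratios scaling the values for all rises and all falls were 55.0 and 57.3%, against 50.9 and 49.0% of all isoforms. Quantile normalization gave 54.4 and 55.0%, against 48.3 and 51.7%. After rescaling to TPM they were 57.0 and 53.3%, against 56.4 and 43.6%, so the rises were then near the share of all isoforms. When the mean of 27 and 32 °C was set against 22 °C with the 3 temperatures as separate groups, 955 isoforms rose and 857 fell (1.79% of those tested), and 1116 of the 1156 calls were among these 1812. Of the 696 additional calls, 492 (70.7%) had an unadjusted p below 0.05 for 32 against 27 °C, and 80 of the 1812 differed between these temperatures at an adjusted p of 0.05 in limma.

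**Figure D5:**
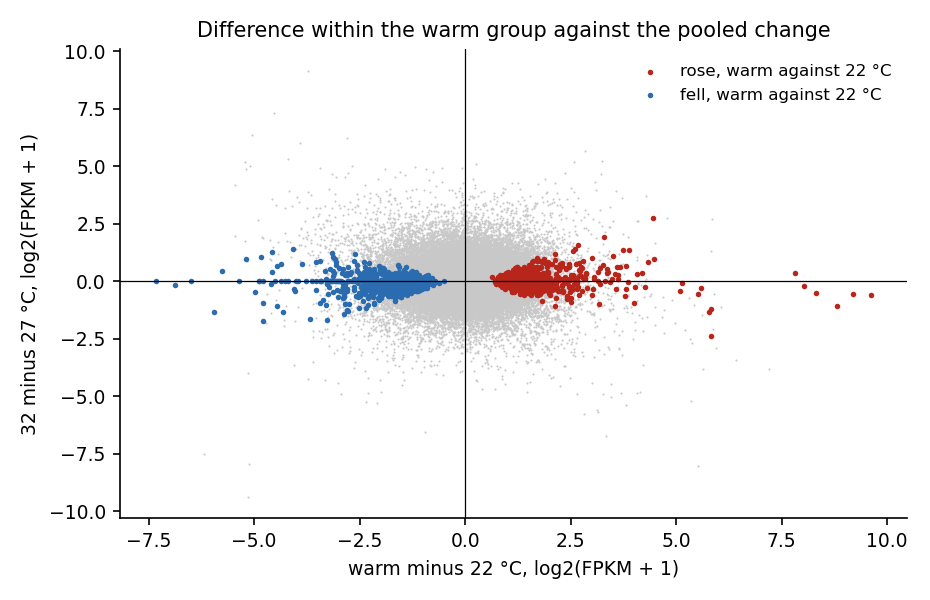
Each point is an isoform, with the warm minus 22 °C difference of log2(FPKM + 1) on the horizontal axis and the 32 minus 27 °C difference on the vertical axis, for isoforms that rose (red), fell (blue) or were not called (grey). The called isoforms lie along the horizontal line at 0, with 16 rises and 19 falls at a distance of 1 or more from it.

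Single libraries came nearest to the other group unequally often. Among the rises, the highest value at 22 °C was in replicate 3 for 292 isoforms, in replicate 2 for 132 and in replicate 1 for 119. Among the falls, the lowest value at 22 °C was in replicate 3 for 245, in replicate 1 for 157 and in replicate 2 for 155. Among the calls, replicate 3 at 22 °C was thus most often the 22 °C library closest to the warm group in both directions. The same count was not made over all isoforms tested, so this may not be particular to the calls. On the warm side the lowest value of the rises was most often in replicate 3 at 32 °C, in 186 of 595, and the highest value of the falls most often in replicate 2 at 27 °C, in 108 of 561. Isoforms whose nearest value was tied between libraries, such as those listed at 0, were not assigned.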

How the data were processed

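The authors deposited FPKM for each library, per the file headers. The submitters' processing notes name the aligner Bowtie2 and the abundance estimator RSEM, with no version. How these were set, which transcripts were used, the genome build and filtering were not given in the sources used here. A value in FPKM depends on the library total, so a few abundant transcripts can shift all other values, and RSEM can share reads between similar isoforms. Summed FPKM ran from 1704900 to 2227300 per library. Read totals are unknown. Among low values the most common ratio between any pair of libraries was at most 1.19, which bears on relative depth for ratios near 1. No pair of libraries held identical values, and 0 columns were left unused.

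Isoforms reaching 1 FPKM in 3 or more of the 9 libraries were tested on log2(FPKM + 1) with limma 3.58.1 in R 4.3.3, two-sided, with trended variance and 2.06 prior degrees of freedom. The main fit had 2 groups, 6 warm libraries and 3 at 22 °C. A second fit with 3 temperature groups gave the differences between 27, 32 and 22 °C. P-values were adjusted by Benjamini-Hochberg over all isoforms tested. Library measures were compared by exact permutation in scipy 1.17.1. The fits were tested on simulated data. The isoforms given by identifier were the 2 largest rises and falls among called, non-overlapping isoforms above 0 in all libraries and averaging 10 FPKM or more in the higher group. The gene table covers assembly ASM2467909v1. The comparison, the rule for isoforms and the bands of abundance were chosen with earlier results of these data known. Alternatives covered the pseudocount, the filter, the scaling, the model and each library left out.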

Additional observations from a re-analysis of the deposited data

Results flagged for a closer look

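Isoform_75091 stood at 36.53 FPKM in replicate 3 at 32 °C, apart from the 5 other warm libraries at 21.37 to 26.22 FPKM. The gap to the nearest library was 0.680 of the range of the warm group, above Dixon's critical value for a set of 6. With the isoforms taken in FPKM, it was the only value to exceed that limit among the 9 sets of warm values examined. These were the 4 isoforms given by identifier, the 3 library measures and the 2 shares of called isoforms, and chance exceeds the limit in about 1 of 20. Over the 1156 calls, counted on the log2(FPKM + 1) scale instead, 132 (11.4%) had a warm library beyond the limit, against 6.66% of all isoforms tested. Replicate 3 at 32 °C was the library in 30 of them, the most of any.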

How the results depend on the processing

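The calls for the warm group against 22 °C numbered 1156 as reported, 570 with no filter, 1812 with 3 temperature groups, 2050 with library weights and 248 to 886 with a library left out. In the 7 other planned settings without a replicate block they numbered 838 to 1299. Rises were 70.3 and 75.9% of the calls with pseudocounts of 0.1 and 0.01, 36.3% with no filter, 62.8% at a minimum of 5 FPKM and 33.9% after median-of-ratios scaling, against 51.5% as reported. A filter on the mean of the group means, added after the data were seen, gave 1049 calls. Calls that also differed between 32 and 27 °C numbered 0 as reported, 1 after rescaling to TPM, 1 after median-of-ratios scaling, 1 with library weights, 80 with 3 temperature groups and 0 to 1 with a library left out. With the replicate number as a block there were 318 calls, 307 of them among the 1156. The numbers are tied to no shared tank, animal or day, deviations from temperature means correlated between same-numbered libraries at -0.019 to 0.052, and not every library correlated best with its own number. The warm excess of isoforms of at least 1 FPKM, 4335 per library, was 383 at 10 FPKM and 7377 at 1 TPM, neither passing, and 2945 to 5850 with a library left out, where 2 against 6 libraries cannot go below an exact permutation p of 0.0714. That of isoforms above 0 was 4827 at a limit of 0.05 FPKM, with an unadjusted exact permutation p of 0.0476. The share of summed FPKM in the 100 most abundant isoforms differed by -1.61 points in the warm group, and that in the 10 most abundant was 1.16 points higher. The cause of these differences between settings was not tested, save that fewer isoforms or libraries enter some of them. Read depth is unknown and limits all low values.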

Other observations

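The share of summed FPKM in the 10 most abundant isoforms of a library was 8.48% ± 0.537 at 22 °C (SD, n = 3) and 9.64% ± 0.886 in the warm group (SD, n = 6), a difference of 1.16 percentage points and the reverse of the direction for the 100 most abundant. The share in the 1000 most abundant was 70.2% ± 2.78 at 22 °C (SD, n = 3) and 65.5% ± 3.95 in the warm group (SD, n = 6). Neither difference passed, each with a two-sided exact permutation p of 0.0952.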
